A study of Rattus norvegicus with 6 samples.

Results

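Reads of leucine tRNA made up 2620 of the 67949 distinct tRNA read sequences in 6 small RNA libraries from AR42J cells, an established rat line of the exocrine pancreas. They were chosen as the read sequences aligned to a mature nuclear tRNA whose name ends in LeuAAG, LeuTAG, LeuCAG, LeuCAA or LeuTAA. They held 132547 of 1671615 tRNA reads. Of the 6 libraries, 3 were made after exposure of the cells to sodium taurocholate (200 µM, 30 min) and 3 from untreated cells, all of the same cell line grown in the same medium. Taurocholate is a bile salt used to injure pancreatic acinar cells in models of pancreatitis. The libraries held 193750 to 348451 tRNA reads and 15377 to 27815 Leu reads, and their RNA had been deacylated, end-repaired and demethylated before library preparation, per the labels' protocols. Of the marker miRNAs counted in the same libraries, the pancreas-rich miR-148a-3p was the highest in all 6 (277600 to 406712 reads per 1000000 miRNA reads). The acinar miR-216a-5p was at 0, miR-216b-5p at or under 1.10, miR-217-5p at or under 0.598 and miR-375-3p at 2.51 to 73.7 on the same scale. Markers listed for stroma and blood were also read, with miR-143-3p at 9487 to 13155 and miR-142-3p at 918 to 2126. The muscle miR-1-3p ran unevenly from 9.28 to 1177 over the libraries, and the blood miR-451-5p from 30.7 to 1080.

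Leucine is carried by a family of tRNAs named by their anticodons, which together read 6 codons. LeuCAG pairs with CUG, LeuTAA and LeuCAA with UUA and UUG, and LeuAAG and LeuTAG with the remaining CU codons (T stands for U in the RNA). Leu and Ser tRNAs share a long variable arm, which most other tRNAs lack. A finished tRNA ends in CCA, the site of amino acid attachment, added after transcription by the enzyme TRNT1. Cuts in tRNA give fragments of several types. Here a tRF-5 has the tRNA's own 5′ end and up to 30 nt, a tiRNA-5 has the same start and more than 30 nt, tRF-3 and tiRNA-3 are the same at the 3′ end, and an i-tRF holds neither end.

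The reads matched 9 mature Leu tRNAs, of which 5 were LeuCAG on chromosome 13, 2 were LeuTAA on chromosome 1, and 1 each LeuTAG on chromosome 1 and LeuAAG on chromosome 4. No read was aligned to a LeuCAA tRNA, so LeuCAA is not analysed here. Reads of LeuCAA that match another Leu tRNA with 1 mismatch would be counted in that set. LeuAAG and LeuTAG end alike, so their short 3′ fragments could not be told apart and formed the set AAG/TAG. The sequences below are the fragments that carried most reads of each set, or that differ by the end they keep. Capitals mark the CCA end, or what is left of it, and in the internal fragment the anticodon. All are spelled with T, as in the deposited files.
AAG/TAG tRF-3, 18 nt: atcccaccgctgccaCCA
AAG/TAG tRF-3 without the last base, 17 nt: atcccaccgctgccaCC
TAG tRF-3, 22 nt: tcgaatcccaccgctgccaCCA
CAG tRF-3, 18 nt, gene copy 3830: atcccacttctgacaCCA
CAG tRF-3, 18 nt, gene copy 2365: atcccactcctgacaCCA
CAG tRF-3, 22 nt, gene copy 3830: tcgaatcccacttctgacaCCA
TAA tRF-3, 18 nt: accccactcctggtaCCA
CAG tRF-5, 25 nt: gtcaggatggccgagcggtctaagg
TAG tRF-5, 16 nt: ggtagcgtggccgagt
AAG i-tRF, 17 nt: cttcggaggcgtgggtt
TAA i-tRF, 21 nt: tggacatatgtctgcgtgggt
TAG i-tRF, 35 nt: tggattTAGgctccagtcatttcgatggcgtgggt

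Leu reads were few kinds of short 3′ fragment. The 10 most abundant sequences took 58.6% of Leu reads, and 1297 of the 2620 sequences were seen 1 time. The set AAG/TAG held 52.5% of Leu reads and CAG 43.7%, while TAG held 1.78%, TAA 1.32% and AAG 0.596%. The remaining sets, shared by AAG or TAA with CAG, held 72 reads in all. Reads of 31 nt or more were 0.476% of Leu reads. The tRNA reads of the 6 libraries ran from 16 to 51 nt, so shorter fragments could not be seen.

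**Figure D1:**
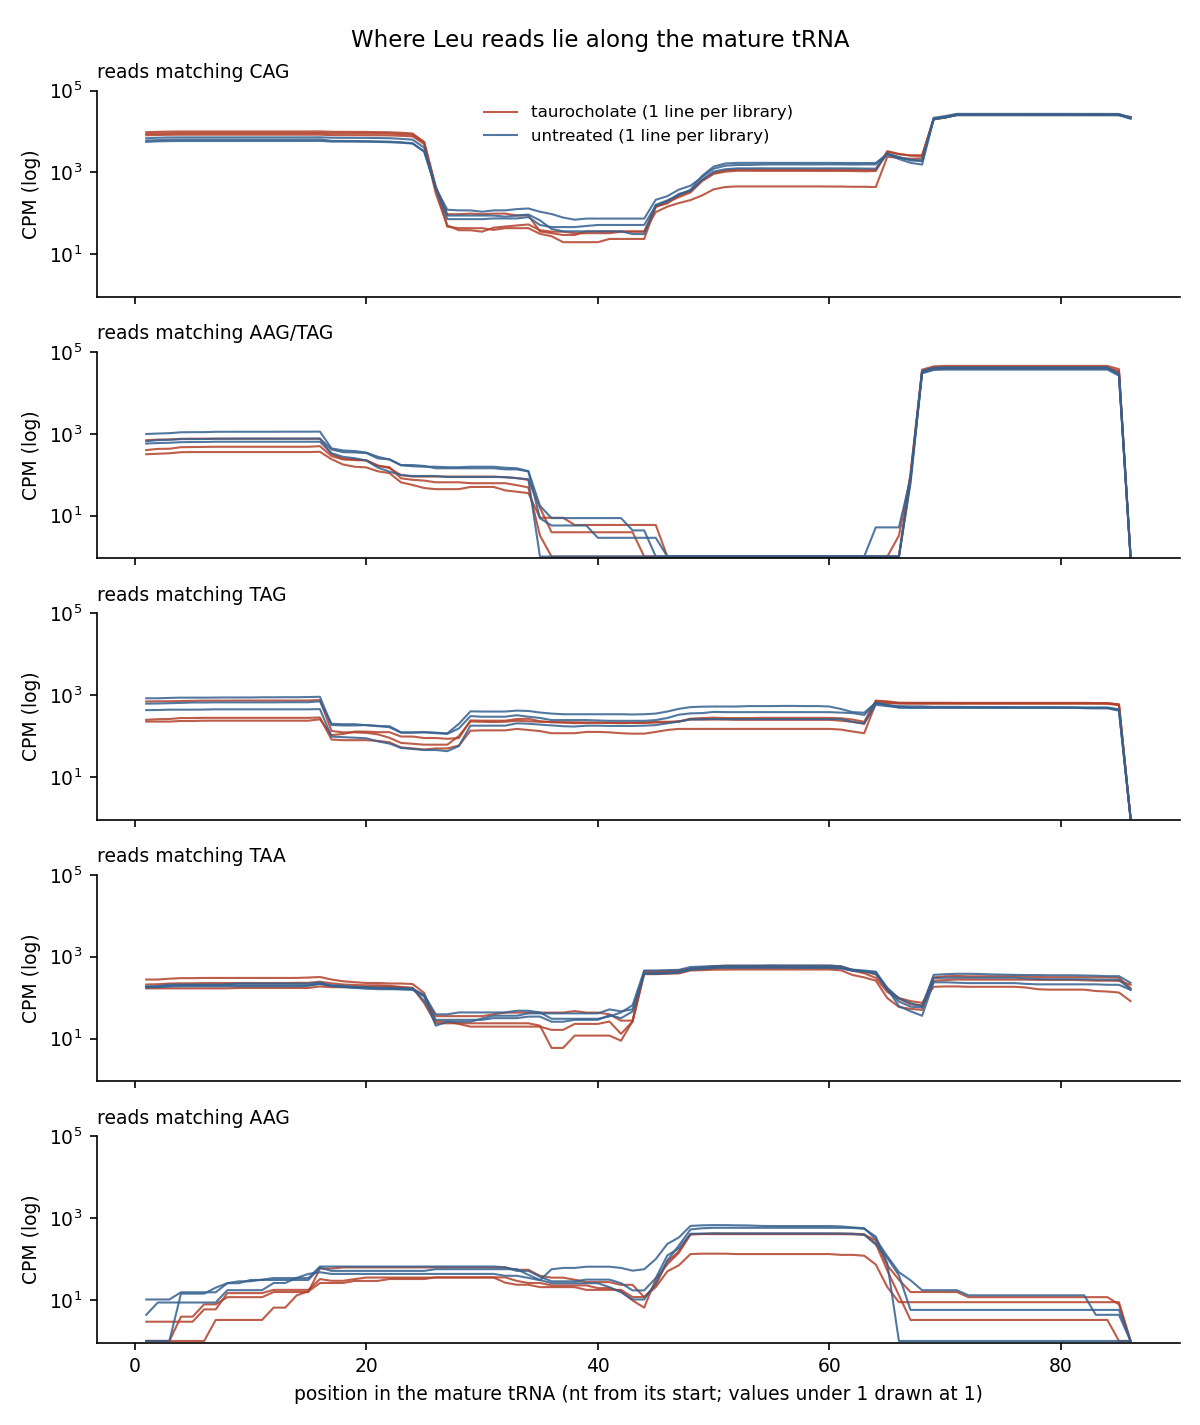
Depth of Leu reads along the mature tRNA in each set (x axis, position from its first base in nt; y axis, CPM, reads per 1000000 tRNA reads, on a log scale; 1 line per library). Depth in AAG/TAG and CAG is highest over the last 18 or so bases, CAG has a second plateau over the first 25, and AAG and TAA peak inside the tRNA, before position 65.

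The 3′ fragments of the sets shared some ends and differed in others. Of AAG/TAG tRF-3, 61.5% ran from position 68 to 85 and 19.2% from 68 to 84. Of CAG tRF-3, 58.5% ran from 69 to 86, 12.7% from 71 to 86, 12.4% from 69 to 85 and 6.36% were the 22-nt form from 65 to 86. TAA tRF-3 had the main ends of CAG, with 58.7% from 69 to 86 and 28.4% from 69 to 85. Of TAG tRF-3, 86.8% were the 22-nt form from 64 to 85, which reaches a base where AAG and TAG differ. Among tRF-3 of 20 nt or more, 934 reads matched TAG alone, 6 matched AAG alone and 2 matched both. Which of the pair gave the shorter ones cannot be read from their sequence.

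At the 5′ end CAG fragments were longer on average than those of AAG/TAG, TAG and TAA in each library. Of CAG tRF-5, 50.1% ended at position 25 and 30.4% at 24 (both starting at 1), and TAA tRF-5 had 31.9% and 32.4% there. Of TAG tRF-5, 85.0% were 16 nt, and of AAG/TAG tRF-5, 57.8%. Since 16 nt is the smallest read length in these data, cuts before this position could not be seen. The 993 AAG/TAG tRF-5 reads are those with 1 mismatch to each reference, which is how a 5′ read with at most 1 mismatch enters this set. In 924 of them it was A7G against LeuAAG and T16C against LeuTAG, counted from 1 at the 5′ end of the tRNA. Of the 993, 580 were 16 nt long, so that position 16 was their last base. Which gene they came from could not be settled.

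Internal fragments of the sets lay in different stretches of the tRNA. Of the 551 TAG i-tRF reads, 347 ran across the anticodon, and the most frequent form lay from position 29 to 63 (18.7%). Of the 766 AAG i-tRF, 39 covered the anticodon, and 21.9% and 21.4% lay from 48 to 63 and from 48 to 64, over the variable arm and the T arm. CAG and TAA i-tRF covered it in 66 of 1989 and 41 of 953 reads. The main TAA form lay from 44 to 64 (24.3%) and the main CAG form from 50 to 65 (19.9%). This CAG form and the AAG form from 48 to 63 have the smallest read length in these data, 16 nt.

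The 5 LeuCAG gene copies were not matched alike at the 2 ends. Copy 3830 alone matched 78.1% of CAG tRF-3 and copy 2365 alone 21.5%, through a base that differs near their 3′ end, as the 18-nt sequences above show. At the 5′ end 99.5% of CAG tRF-5 matched 4 copies equally, and copy 3830 was not among them. The share of copy 3830 in CAG tRF-3 was 77.2%, 82.5% and 78.2% in the taurocholate libraries and 78.3%, 76.8% and 76.6% in the untreated ones. The groups overlapped.

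Against other tRNAs, Leu reads held a larger share of tRF-3 in every library. Of Leu reads, 84.9% ± 1.73 were tRF-3 (SD over 6 libraries), against 81.2% ± 3.92 of Ser reads and 46.3% ± 2.15 of all other nuclear tRNA reads. The other reads are all nuclear ones outside Leu, and so include Ser. A 3′ end could be set for 320 of the 403 mature tRNA references, with all 9 of Leu among them. Alignments to a reference without a set 3′ end could not count as tRF-3 or tiRNA-3. Away from the 5′ end they counted as i-tRF. The part of this limit in the differences from other tRNAs was not tested. The difference from other tRNAs was 38.6 percentage points and was positive in 6 of 6 libraries. The tiRNA-5 took 0.146% ± 0.055 of Leu reads and 0.117% ± 0.085 of Ser reads, against 18.2% ± 4.19 of other reads, so long 5′ fragments were rare in both families. The i-tRF took 3.43% ± 1.05 of Leu reads, 2.97% ± 0.344 of Ser reads and 20.9% ± 3.18 of other reads. A two-sided exact sign-flip permutation test over the 6 libraries gave p = 0.0312, the smallest it allows, for tRF-3, i-tRF, tiRNA-5 and tiRNA-3 against other tRNAs, and 0.0625 after Benjamini-Hochberg adjustment over 10 comparisons, so none passed 0.05. Between Leu and Ser, tRF-3 differed by 3.72 points (exact p = 0.0625, adjusted 0.0893), positive in 5 of 6 libraries. Only tiRNA-3 reached the smallest p there (adjusted 0.0625), at 0.0476% of Leu and 0.575% of Ser reads. When each read sequence was counted 1 time in place of its reads, the Leu minus Ser difference in tRF-3 turned to -7.49 points.

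**Figure D2:**
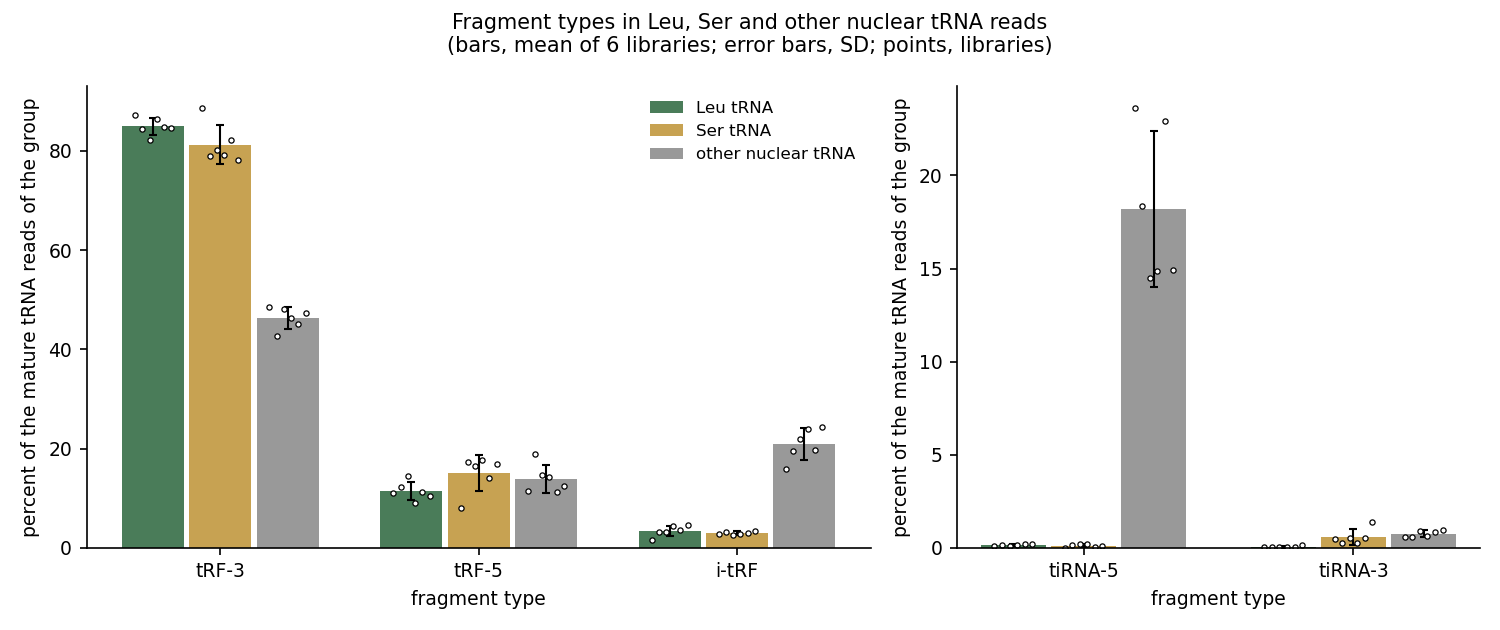
Share of each fragment type (x axis) in the mature tRNA reads of Leu, Ser and all other nuclear tRNAs (y axis, percent; bars, mean of 6 libraries; error bars, SD; points, libraries). Leu and Ser stand at 84.9% and 81.2% tRF-3, other tRNAs (all outside Leu, Ser included) at 46.3%, and tiRNA-5 reach 18.2% only in the other tRNAs.

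The question of the study was which small RNAs differ after taurocholate. Over all fragment types and anticodon sets, edgeR's quasi-likelihood test called 0 of 230 (0% called) at an adjusted p under 0.05, with 22 at an unadjusted p under 0.05 (9.57%), 11 of them higher. Scaled to library totals without TMM factors, 20 had such a p and 3 of them were higher. With DESeq2's Wald test 0 were called and 17 had such a p. The 29 Leu features held 13 that passed the filter on low counts. None of the 13 was called, 2 had an unadjusted p under 0.05, 6 were higher and 7 lower with taurocholate, and their median log2 fold change was -0.07, against 0.01 over all 230. In level, 5 of the 13 had groups that did not overlap, against 40 of all 230 (17.4%). Levels below are CPM (reads per 1000000 tRNA reads), given for replicates 1, 2 and 3. In reads from whole cultures, fewer cells and less RNA per cell cannot be told apart.

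Total Leu reads were 8.22%, 8.01% and 8.08% of tRNA reads with taurocholate, against 7.94%, 7.40% and 8.01% untreated. Every taurocholate library lay above every untreated one, though at the edge both groups stood at 8.01% (exact permutation p = 0.1, two-sided, the smallest that 3 against 3 libraries allow). Of 78 anticodon set totals, 0 were called (0%) and 4 had an unadjusted p under 0.05 (5.13%). One of the 4 was TAG, with 1064, 1169 and 1700 CPM under taurocholate and 1610, 1220 and 1942 CPM untreated, a log2 fold change of -0.39 (SE 0.16, edgeR adjusted p = 0.68). Its groups overlapped. CAG and AAG/TAG, the large sets, had log2 fold changes of 0.18 (SE 0.11) and 0.18 (SE 0.13). As shares of Leu reads, AAG/TAG held 52.7% ± 3.16 with taurocholate and 52.4% ± 1.59 untreated, and CAG held 43.9% ± 2.46 and 43.4% ± 1.67 in the same groups (SD, n = 3 each, exact permutation p = 0.9 and 0.8). AAG alone held 0.219%, 0.597% and 0.569% with taurocholate, against 0.819%, 0.671% and 0.908% untreated, with groups apart (exact permutation p = 0.1, adjusted 0.5 over 5 sets). TAG and TAA shares overlapped (exact p = 0.3 and 0.4).

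None of the 4 tRF-3 features tested passed the adjusted threshold. AAG/TAG tRF-3 had 45680, 41565 and 39407 CPM in the taurocholate libraries and 42354, 37107 and 40236 CPM in the untreated ones, which overlapped, with a log2 fold change of 0.24 (SE 0.16). It was 0.13 without taurocholate replicate 1, 0.40 without taurocholate replicate 3, and 0.08 when scaled to library totals. CAG tRF-3 had 25125, 25169 and 26098 CPM under taurocholate and 25492, 24859 and 26746 CPM untreated. The groups overlapped. Its log2 fold change of 0.13 (SE 0.13) includes the TMM scaling, and was -0.013 with library totals.

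TAG tRF-3, of which 86.8% were the 22-nt form, had 618, 635 and 653 CPM with taurocholate, against 485, 485 and 466 CPM untreated. Every taurocholate library lay above every untreated one, and the libraries within a group lay close together. Its log2 fold change was 0.55 (SE 0.17, unadjusted p = 0.013, edgeR adjusted p = 0.391), which did not pass over all 230. TAA tRF-3 had 254, 125 and 307 CPM under taurocholate and 201, 264 and 331 CPM untreated, with overlapping groups and a log2 fold change of -0.07 (SE 0.33).

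The 22-nt form of CAG tRF-3, looked at after its values were seen, is of interest because a LeuCAG 3′ fragment of this length was reported in human cells to aid translation of ribosomal protein mRNAs. It made up 7.13%, 7.43% and 7.53% of CAG tRF-3 with taurocholate, against 4.33%, 6.0% and 4.77% untreated. The groups did not overlap (exact permutation p = 0.1, adjusted 0.494 over 79 main ends). As single sequences, the form of copy 3830 had 665, 1051 and 1100 CPM under taurocholate and 526, 858 and 784 CPM untreated, and that of copy 2365 had 210, 259 and 343 CPM and 119, 261 and 187 CPM in the same groups. Both overlapped, with log2 fold changes of 0.54 (edgeR adjusted p = 0.376) and 0.67 (0.403).

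None of the 4 tRF-5 features tested passed the adjusted threshold either. CAG tRF-5 had 8291, 9086 and 9942 CPM with taurocholate and 5801, 7117 and 6277 CPM untreated. Every taurocholate library was above every untreated one. Its log2 fold change was 0.64 (SE 0.16, unadjusted p = 0.00519), and stayed between 0.57 and 0.78 when any 1 library was left out. Its edgeR adjusted p of 0.329 was the smallest among all 230 features, but was shared with others, and did not pass. Among the 34 tRF-5 tested over all tRNAs, 26 were higher with taurocholate and the median log2 fold change was 0.14. Of these 34, 7 had an unadjusted p under 0.05.

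AAG/TAG tRF-5 had 328, 408 and 708 CPM with taurocholate, against 557, 634 and 1010 CPM untreated (log2 fold change -0.48, SE 0.29; -0.24 without untreated replicate 3). TAG tRF-5 had 257, 204 and 715 CPM with taurocholate, against 625, 425 and 831 CPM untreated (-0.55, SE 0.42; -1.14 without taurocholate replicate 3 and -0.25 without taurocholate replicate 2). In both sets taurocholate replicate 3 and untreated replicate 3 were the highest library of their group, and the groups overlapped. TAA tRF-5 had 222, 169 and 297 CPM under taurocholate and 201, 189 and 205 CPM untreated (0.35, SE 0.22; 0.52 without taurocholate replicate 2). None of the 3 passed the edgeR threshold.

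Internal fragments of 3 sets were lower with taurocholate in value, without passing the test. CAG i-tRF had 488, 1125 and 1224 CPM with taurocholate, against 1745, 1286 and 1637 CPM untreated. AAG i-tRF had 168, 463 and 457 CPM with taurocholate, against 635, 476 and 705 CPM untreated. In both the groups were apart, and taurocholate replicate 1 was the lowest of all 6 libraries.

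TAG i-tRF had 163, 298 and 323 CPM with taurocholate, against 475, 287 and 562 CPM untreated, which overlapped. The log2 fold changes were -0.60 (SE 0.29), -0.62 and -0.61 in the order CAG, AAG, TAG, each with an edgeR adjusted p of 0.461. Without taurocholate replicate 1 they were -0.30, -0.28 and -0.38. TAA i-tRF had 505, 620 and 558 CPM under taurocholate and 588, 554 and 636 CPM untreated, a log2 fold change of 0.07 (SE 0.16), and -0.079 with library totals. Among the 57 i-tRF tested over all tRNAs, 39 had a negative value and the median was -0.10.

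As a share of Leu reads, i-tRF took 1.64%, 3.19% and 3.21% with taurocholate, against 4.38%, 3.60% and 4.56% untreated. The tiRNA-5 took 0.0719%, 0.127% and 0.109% with taurocholate, against 0.150%, 0.217% and 0.201% untreated. In both, and in tiRNA-3, the groups were apart with an exact permutation p of 0.1, and 0.167 after adjustment over 5 types. The long fragments rest on few reads. AAG/TAG tiRNA-5, the only one tested, had 9, 16 and 14 reads under taurocholate and 13, 37 and 18 reads untreated, or 26.6, 62.7 and 45.7 CPM and 67.1, 106 and 78.4 CPM in the same groups. Its log2 fold change was -0.83 (SE 0.37, edgeR adjusted p = 0.461), and -0.52 without untreated replicate 2.

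**Figure D3:**
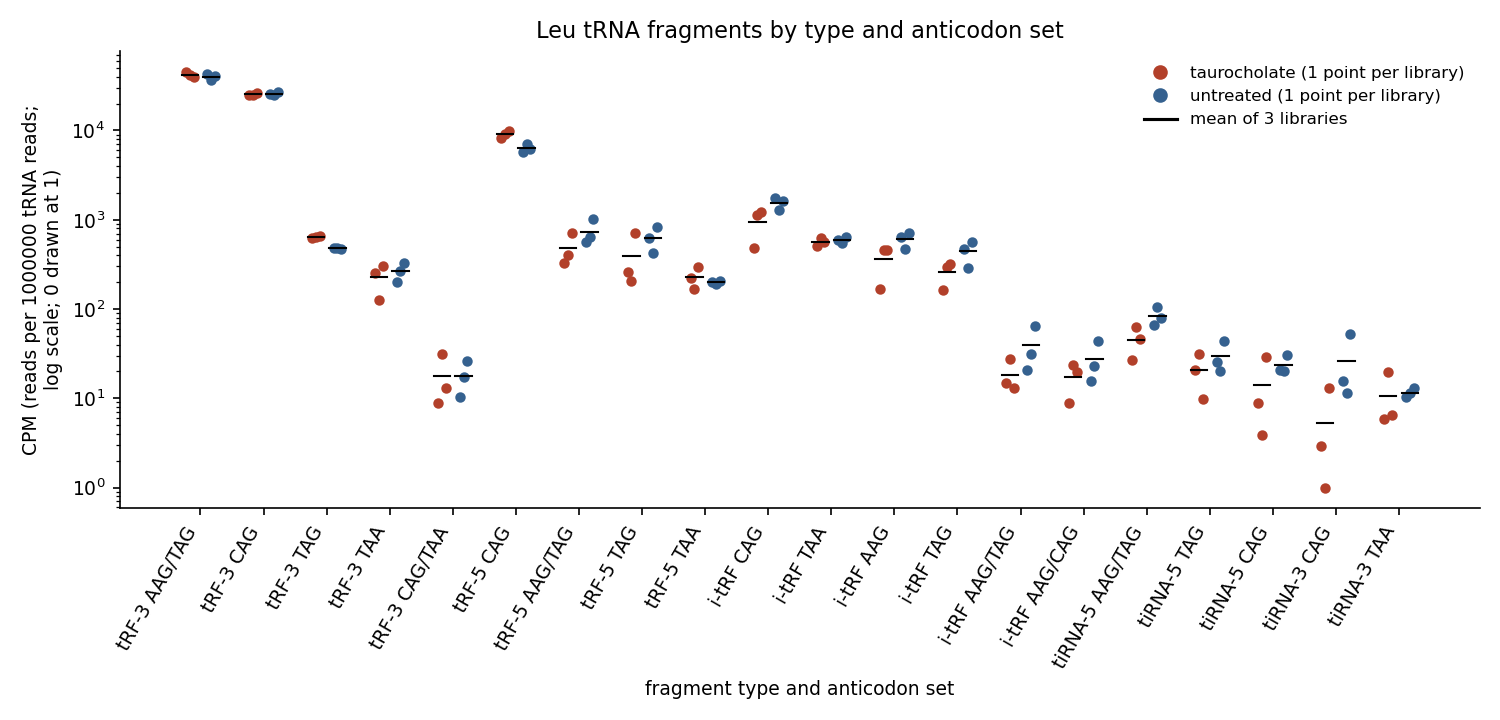
Level of each Leu fragment type and anticodon set with a mean of at least 10 CPM (y axis, CPM on a log scale; points, libraries, taurocholate left and untreated right of each pair; lines, means of 3). CAG tRF-5 and TAG tRF-3 lie higher in every taurocholate library, CAG and AAG i-tRF and AAG/TAG tiRNA-5 lower, and none of them passed the adjusted threshold.

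Single sequences were tested as well. Of 2233 tRNA read sequences tested, edgeR called 0 (0%) and 315 had an unadjusted p under 0.05 (14.1%). Among the 128 Leu sequences tested, 19 did, of which 10 were higher and 9 lower. The median over the 128 was 0.12 on the log2 scale, against 0.03 over all 2233. The 3 higher ones of smallest p were all CAG tRF-5. The 25-nt form shown above had 574, 489 and 522 reads with taurocholate and 186, 447 and 219 reads untreated (0.95, SE 0.26, edgeR adjusted p = 0.302). A sequence that differs from it by C16T, gtcaggatggccgagtggtctaagg, had more reads in all 6 libraries, with 671, 533 and 671 reads under taurocholate and 246, 561 and 263 reads untreated (0.85, SE 0.25). It was placed in CAG with 1 mismatch, and which gene it came from was not settled. The 24-nt form had a log2 fold change of 0.74 (SE 0.22). The 15 most abundant sequences of the 5 main sets had log2 fold changes from -1.22 to 0.78 and edgeR adjusted p of at least 0.319.

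The 3 lower ones of smallest p were a 34-nt AAG/TAG tiRNA-5 (-1.18, SE 0.30) and a pair of tRF-3 that stop 1 nt before the 3′ end and carry C17T, counted from the start of the read, atcccaccgctgccaCT of AAG/TAG (-0.81, SE 0.21) and atcccactcctgacaCT of CAG (-0.77, SE 0.21). The first of this pair had 533, 655 and 912 reads with taurocholate, against 1071, 1349 and 1051 reads untreated. DESeq2's Wald test called 44 of the 2233 sequences. Among them were 5 of the 128 Leu sequences, 3 CAG tRF-5 as higher and 2 AAG/TAG tRF-3 ending in CT as lower.

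A difference that passed its test lay in the last base of the 3′ fragments. Among error-free Leu tRF-3 that end at the final A or 1 nt before it, those without the A made up 12.5%, 11.3% and 13.0% with taurocholate, against 17.3%, 17.4% and 16.7% untreated. All taurocholate libraries lay below all untreated ones (difference -4.88 points, exact permutation p = 0.1, adjusted 0.16 over 8 measures). In AAG/TAG the share was 15.3%, 13.5% and 15.3% with taurocholate, against 21.1%, 21.3% and 20.9% untreated, and in CAG 7.6%, 7.86% and 9.71%, against 11.8%, 12.0% and 11.1%. The untreated libraries of each set agreed within 1 point.

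TAG stood at 8.33%, 3.92% and 6.35% with taurocholate and 10.0%, 12.7% and 6.94% untreated, from 4 to 15 reads without the A in a library, and the groups overlapped. TAA also overlapped, with 16%, 25% and 30.4% under taurocholate and 8.70%, 28.3% and 21.3% untreated.

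**Figure D4:**
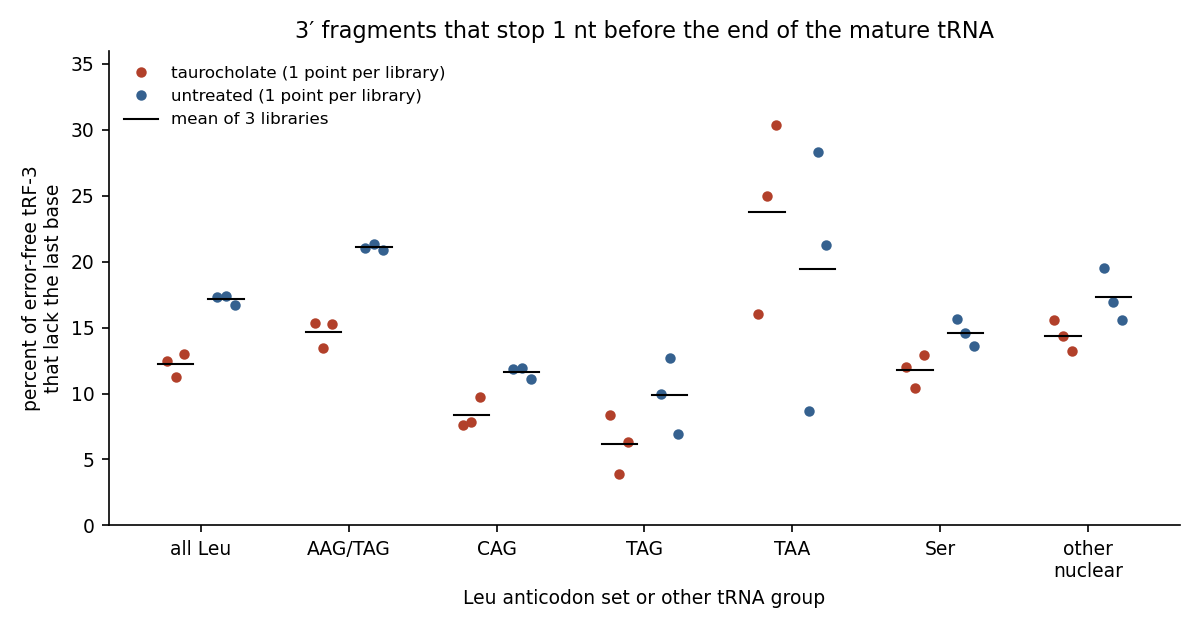
Share of error-free tRF-3 that stop 1 nt before the end of the tRNA (y axis, percent of those that end there or at the last base) in Leu, its anticodon sets, Ser and other nuclear tRNA (x axis; points, libraries, taurocholate left and untreated right; lines, means of 3). Leu lies at 11.3% to 13.0% with taurocholate and at 16.7% to 17.4% untreated, and Ser and other tRNA (Ser included) also have their taurocholate libraries lower.

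The last base was looked at only once the data had been seen. It was tested across 42 anticodon sets with at least 10 such reads in every library, by an edgeR quasi-likelihood test of the end by treatment interaction with each library as a block. The test called 14 of 42 sets (33.3%), all 14 lower with taurocholate. AAG/TAG fell by 0.64 in log2 odds (SE 0.088, adjusted p = 5.7e-10) and CAG fell by 0.52 (SE 0.10, adjusted p = 8.4e-06). TAG was at -0.81 (SE 0.43, edgeR adjusted p = 0.132) and TAA at 0.13 (SE 0.42, 0.844), and neither passed. AAG/TAG and CAG were called under each left-out library, at -0.67 to -0.57 and -0.65 to -0.45. The edgeR p-values borrow variance from all 42 sets, which share the same 6 libraries, and so can overstate the evidence. With the library as the unit, the exact permutation p of the share was 0.1 in both sets (adjusted 0.16 over 8 measures).

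The fall was not restricted to Leu. The median over all 42 sets was -0.37, and 40 of them were lower. In Ser tRF-3 the share without the A was 12.0%, 10.4% and 12.9% with taurocholate, against 15.7%, 14.6% and 13.6% untreated. In other nuclear tRNA, Ser included, it was 15.6%, 14.3% and 13.2%, against 19.5%, 16.9% and 15.6%. The Leu minus other difference was -3.08, -3.06 and -0.197 points with taurocholate and -2.20, 0.476 and 1.16 points untreated, which overlapped (exact permutation p = 0.2). The sets share their libraries, so the 14 calls are not independent of each other.

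**Figure D5:**
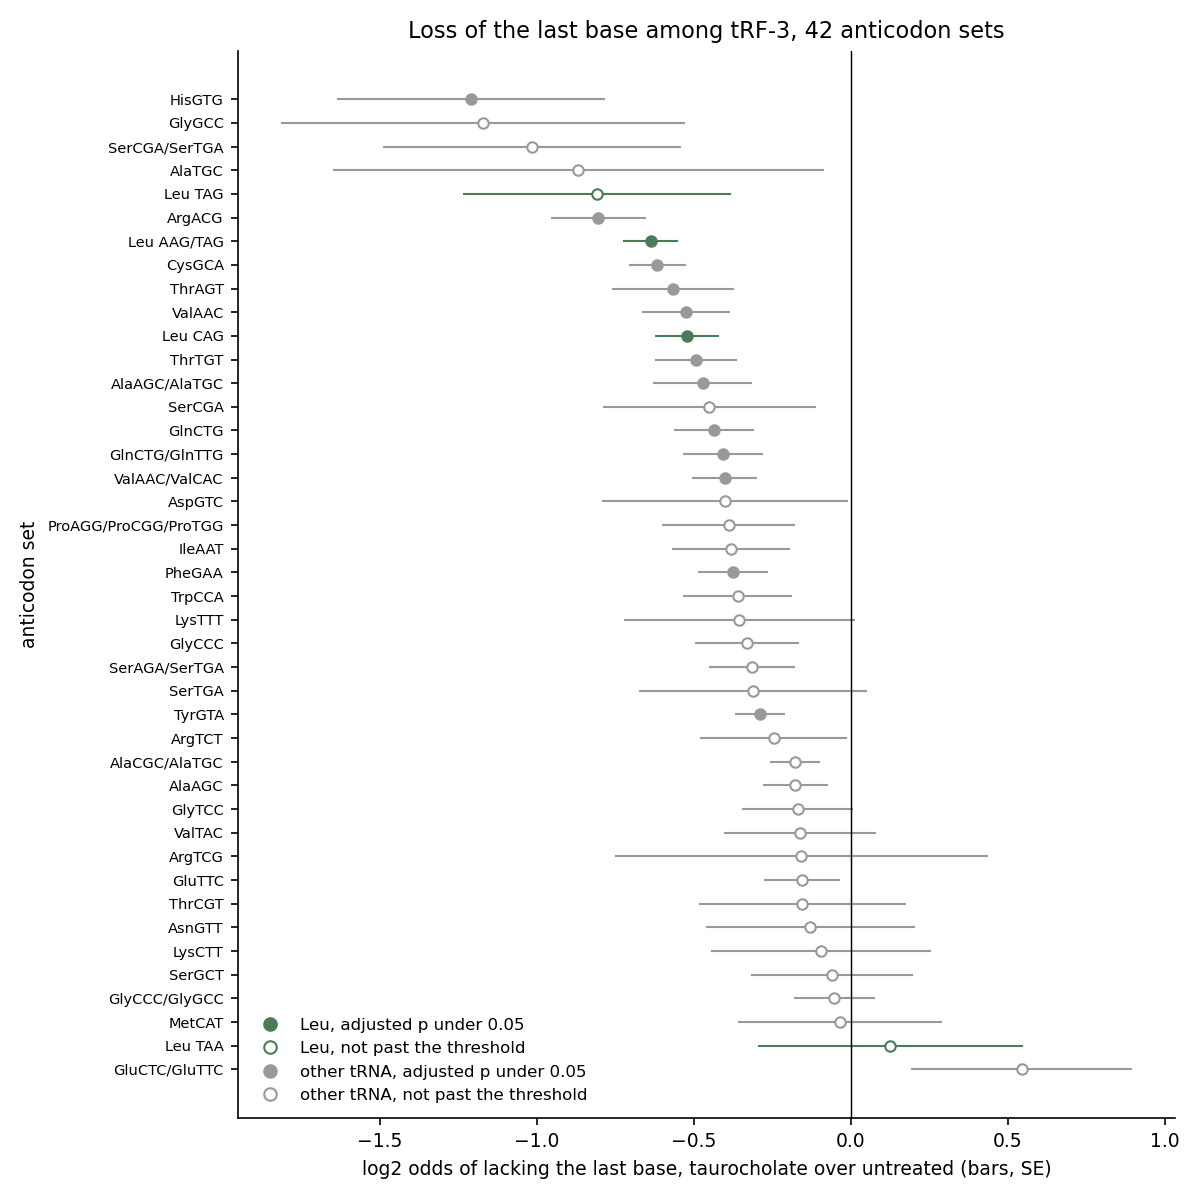
Log2 odds that an error-free tRF-3 lacks the last base, taurocholate over untreated (x axis; bars, SE), in 42 anticodon sets (y axis). Leu AAG/TAG at -0.64 and CAG at -0.52 are among 14 filled points past the adjusted threshold, all left of 0, and 40 of 42 sets lie left of 0.

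Mismatches at the last base moved with some libraries. Of Leu reads, 30.7%, 1.75% and 2.39% ended in a mismatched G with taurocholate, and 11.2%, 2.27% and 2.39% untreated, so replicate 1 of each group stood apart. A mismatched last T took 5.90%, 10.4% and 11.3% with taurocholate, against 18.6%, 13.5% and 15.6% untreated, with groups apart. The share without the last A was taken on error-free reads, which leave both kinds out. With reads of up to 1 mismatch it was 14.4%, 16.5% and 19.2% with taurocholate, against 25.6%, 24.4% and 25.0% untreated, and AAG/TAG and CAG were at -0.85 and -0.58 in log2 odds. The part of these mismatches in the levels of full-length tRF-3 and i-tRF was not tested.

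Mean lengths were compared at each end among reads of at least 16 nt, the smallest length in these data, and no difference passed. Leu fragments at the 3′ end averaged 17.7, 17.8 and 17.7 nt with taurocholate, against 17.6, 17.7 and 17.7 nt untreated, a difference of 0.122 nt with groups apart (exact permutation p = 0.1, adjusted 0.25 over 10 lengths). It was 0.0285 nt among reads of 18 to 40 nt, where the groups overlapped. The 3′ lengths include the reads without the last A, and so are not independent of the last-base share above. The part of those reads in the length differences was not tested. Leu fragments at the 5′ end averaged 23.8, 24.0 and 23.3 nt with taurocholate, against 23.0, 23.4 and 22.3 nt untreated, which overlapped (difference 0.808 nt, exact permutation p = 0.2). By set, AAG/TAG and CAG 3′ fragments were longer with taurocholate by 0.117 and 0.135 nt with groups apart, and CAG 5′ fragments by 0.313 nt, all with an exact p of 0.1. The TAG and TAA sets overlapped at both ends, with exact p from 0.4 to 0.9, as did AAG/TAG 5′ fragments (difference -0.0378 nt, exact p = 0.9).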

How the data were processed

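Each deposited file lists, per the file headers, alignments of distinct read sequences to tRNA or miRNA precursors with the count of reads of each sequence, the authors' raw count without normalization. FastQC, cutadapt and Novoalign 2.07.11 are named in the submitters' processing notes. No genome build is given in the sources used here, so chromosomes but no coordinates are printed. Alignments carry at most 1 mismatch. Each sequence entered 1 time with its count, and 17 sequences (24 reads) shared with another amino acid were left out. Ends were placed within 3 nt of the mature tRNA's ends, with the 3′ end set at the final CCA that reads without mismatch spell out. Tests on counts used edgeR 4.0.16 under R 4.3.3 (TMM, filterByExpr, quasi-likelihood test, group as the sole term, 3 against 3 libraries, Benjamini-Hochberg over all tRNA features), with DESeq2 1.42.0 as an alternative. Printed CPM are reads per 1000000 tRNA reads without TMM factors; fold changes include them. Shares and lengths were compared by exact permutation tests in Python 3.11.15. The scripts were tested on simulated data.

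Features with a mean of at least 10 CPM, the 3 most abundant sequences of each set and the 3 of smallest p in each direction are named, with the printed sequences chosen among them; the 22-nt CAG and 35-nt TAG sequences were chosen after their values were seen. The members and lists were chosen with earlier results of these data known. The labels do not say whether replicates were separate cultures, and p-values cover the spread among these 6 libraries alone, which may be of technical origin. Alternatives were other scalings, tests, filters, end tolerances and read choices, a replicate block and leaving out each library.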

Additional observations from a re-analysis of the deposited data

How the results depend on the processing

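Of 1105 recomputed values, 1008 kept their direction and side of the threshold, 50 changed sign, 30 went over and 11 came under the threshold of 0.05 (adjusted for edgeR and DESeq2, unadjusted for permutation tests), and 6 counts moved by over 1.5 times. Permutation tests between the groups cannot go under 0.1, or 0.2 with 1 library left out, so their side of the threshold was fixed. The sign-flip p of 0.0312 had to go over the threshold whenever 1 library was left out. These counts are thus partly set by the design. Causes of the other changes were not tested. The last-base calls of AAG/TAG and CAG held in each alternative run, with 10 to 17 sets called when 1 library was left out. Over all features 0 calls became 3 of 508 without the filter on low counts and 1 of 230 with an end tolerance of 0 nt, with 0 in Leu. Calls of single sequences became 44 of 2233 with DESeq2's Wald test (5 of 128 in Leu) and 125 of 67949 without the filter (9 of 2620 in Leu).

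Scaling to library totals put the median log2 fold change over all 230 features at -0.13, against 0.01 with TMM. TAA i-tRF turned to -0.079 and CAG tRF-3 to -0.013, and the sequences cttcggaggcgtgggtt, atcccacttctgacaCCA and atcccactcctgacaCCA to -0.046, -0.036 and -0.18. The last of these was at -0.0031 with error-free reads, and the log2 odds of TAA at -0.067 with reads of up to 1 mismatch.

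Among differences between groups in Leu reads, in percentage points, the tRF-3 share turned to 3.75 with each sequence counted 1 time and 6.60 with a tolerance of 0 nt. The AAG/TAG share turned to -0.351 and the TAA share to 0.926 with each sequence counted 1 time, and the CAG share to -1.17 with error-free reads and -0.976 with reads of 18 to 40 nt. Leu minus Ser, tRF-3 and tRF-5 reached 7.40 and -7.44 with error-free reads, tRF-3 turned to -7.49 with each sequence counted 1 time, i-tRF was at -0.890 with reads of 18 to 40 nt, 10.7 with each sequence counted 1 time and 2.79 with a tolerance of 0 nt, and tiRNA-5 at -0.0520 with error-free reads. Leu minus other tRNA, tRF-5 stood at -4.27 with error-free reads, -3.27 without reads of 51 nt, -5.48 with reads of 18 to 40 nt, 8.89 with each sequence counted 1 time, and 1.07 and -3.16 with a tolerance of 0 and 5 nt. In length, AAG/TAG 5′ fragments differed by 0.594 nt with each sequence counted 1 time and 0.0145 nt with a tolerance of 5 nt, TAA 5′ fragments by -0.215 nt with reads of 18 to 40 nt, and Leu and CAG 3′ fragments by -0.176 and -0.266 nt with each sequence counted 1 time.

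Leaving out 1 library gave ranges that cross 0 for TAA i-tRF (-0.004 to 0.19), TAA tRF-3 (-0.22 to 0.22), the TAA log2 odds (-0.35 to 0.59), and the sequences cttcggaggcgtgggtt (-0.27 to 0.49), atcccactcctgacaCCA (-0.10 to 0.10), tggacatatgtctgcgtgggt (-0.24 to 0.13) and ggtagcgtggccgaga (-0.99 to 0.26). So did the shares, in percentage points, of tRF-3 (-2.01 to 0.474), AAG/TAG (-1.25 to 1.90) and CAG (-0.642 to 1.80), of TAA tRF-3 without the last A (-1.02 to 8.80) and of tiRNA-5 in Leu minus Ser (-0.00384 to 0.0536), and the lengths of AAG/TAG 5′ (-0.445 to 0.372 nt), TAA 3′ (-0.219 to 0.798 nt) and TAG 3′ fragments (-0.668 to 0.0621 nt). With 5 libraries a sign-flip p cannot go under 0.0625, and the differences that had reached 0.0312 then ranged, for Leu minus other tRNA, from 38.0 to 39.5 (tRF-3), -18.1 to -17.0 (i-tRF), -18.8 to -17.0 (tiRNA-5) and -0.739 to -0.669 (tiRNA-3), and for tiRNA-3 in Leu minus Ser from -0.587 to -0.383.

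Same-numbered libraries of the 2 groups did not deviate together over 230 features (correlations -0.23, 0.03 and 0.29 for numbers 1, 2 and 3), so the numbers were not taken as pairs. Replicate 1 of both groups did share a raised mismatched last G (30.7% with taurocholate, 11.2% untreated). Whether same-numbered libraries were processed together was not tested. With a replicate block, 0 features and 0 sequences were called, the count of end calls was 17 in place of 14, and the sequence cttcggaggcgtgggtt turned to -0.030. Error-free reads gave no value for the AAG/TAG fragments at the 5′ end, since such reads enter this set by a mismatch to each reference. Depth limits the long fragments and AAG most, with 107 reads of AAG/TAG tiRNA-5 and 790 reads of AAG in all 6 libraries.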
